A study of Rattus norvegicus with 12 samples.

Results

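Zeb1 is 1 of 32883 genes in the count table, chosen by its Ensembl rat identifier, ENSRNOG00000017863. It encodes zinc finger E-box binding homeobox 1, a transcription factor, and has been published as a target of Cpeb4. The files list identifiers without symbols, and none of the 47357 genes in the RefSeq table at hand (assembly GRCr8) carries an Ensembl identifier, so the name could not be checked there. Zeb1 was 1 of the 10491 genes with enough counts to be tested.

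Zeb1 binds E-box sequences in DNA and is best known for repressing the epithelial gene Cdh1 (E-cadherin) during epithelial-mesenchymal transition, when cells lose epithelial contacts and become migratory. In developing mammals it is expressed mainly in mesenchymal and neural tissues. Cpeb4 belongs to a family of proteins that bind U-rich cytoplasmic polyadenylation elements in the 3′ part of mRNAs and change the length of the poly(A) tail and the translation of those mRNAs. A transcript that Cpeb4 binds would thus be sought in a Cpeb4 precipitate, while any effect on translation would be sought in the protein.

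The cells were ventricular cardiomyocytes of newborn Wistar rats of up to 2 days of age, isolated with trypsin and a Percoll gradient. The 12 libraries form 4 groups of 3, namely Cpeb4 immunoprecipitates (IP) of cells given phenylephrine (PE) for 24 h, IP of mock-treated cells, input total RNA of PE cells and input total RNA of mock cells. PE is an agonist of alpha-1 adrenergic receptors that makes cardiomyocytes grow. No group carried a genetic change, and precipitates with a control antibody or from cells lacking Cpeb4 were not analysed here. The precipitates were collected on beads against rabbit IgG and washed with high salt. Libraries were made with a kit that sequences the 3′ end of poly(A) RNA. The labels leave unsaid whether the replicates of a group came from different cultures or animals, and the p-values therefore reflect no more than the variation among these libraries, which may be technical.

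Library totals ranged from 1423334 to 30216559 counts, and 8455 to 11822 genes had a count in a library. The libraries of IP mock replicate 2, input mock replicate 2 and input PE replicate 1 stood apart. Of 7613 genes with a mean of at least 5 CPM (counts scaled to a common library size), 8.41% to 13.4% had 0 counts in these 3 libraries, against 0.171% to 3.77% in the other 9. Results for Zeb1 are therefore given with and without mock replicate 2 and PE replicate 1 of IP and input, which are 4 libraries. They are also given without only the 3 that stood apart, since IP PE replicate 1 did not by this share (1.38%). That library was also the deepest, at 30216559 counts. In a limma voom fit, which weights libraries by quality, its weight was low, at 0.217. Input mock replicate 2 had 0.478, input PE replicate 1 had 0.418 and IP mock replicate 2 had 0.0636. Markers of cardiomyocytes and of other heart cells could not be read, because the identifiers carry no symbols, and the same holds for partners and target genes of Zeb1 and for the Cpeb4 transcript. In bulk samples, fewer cells of a type and less RNA per cell cannot be told apart.

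Zeb1 reads were a small share of input RNA and a larger share of the Cpeb4 precipitates. The IP libraries of PE cells held 11814, 1311 and 843 Zeb1 counts in replicates 1, 2 and 3. Input libraries of PE cells held 489, 32 and 269 counts. The IP libraries of mock cells held 1394, 27392 and 5704 counts, and input libraries of mock cells held 86, 666 and 14. Every library had Zeb1 counts, and all 6 input libraries had fewer than any IP library, although input PE replicate 3 was among the deepest in the series, with 29538785 counts in total. As reads were counted without molecular identifiers, the intervals given for single libraries cover counting error only.

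After scaling to library size and composition with TMM factors, Zeb1 stood at 248, 387 and 105 CPM in IP of PE cells (replicates 1, 2 and 3), against 98.8, 8.62 and 16.1 CPM in input of PE cells. In mock cells it stood at 194, 1054 and 265 CPM in IP, against 20.8, 152 and 18.8 CPM in input. The 3 IP libraries lay above the 3 input libraries in either treatment. The gap was narrow in PE cells, where the lowest IP library had 105 CPM and the highest input library 98.8 CPM. Their 95% Poisson intervals, 98.0 to 112 CPM and 90.2 to 108 CPM, overlapped. Across treatments the ranges touched, because input mock replicate 2 at 152 CPM exceeded IP PE replicate 3 at 105 CPM. Of all genes tested, 12.9% had every IP library above every input library in PE cells, 9.96% in mock cells and 2.95% in both treatments.

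**Figure D1:**
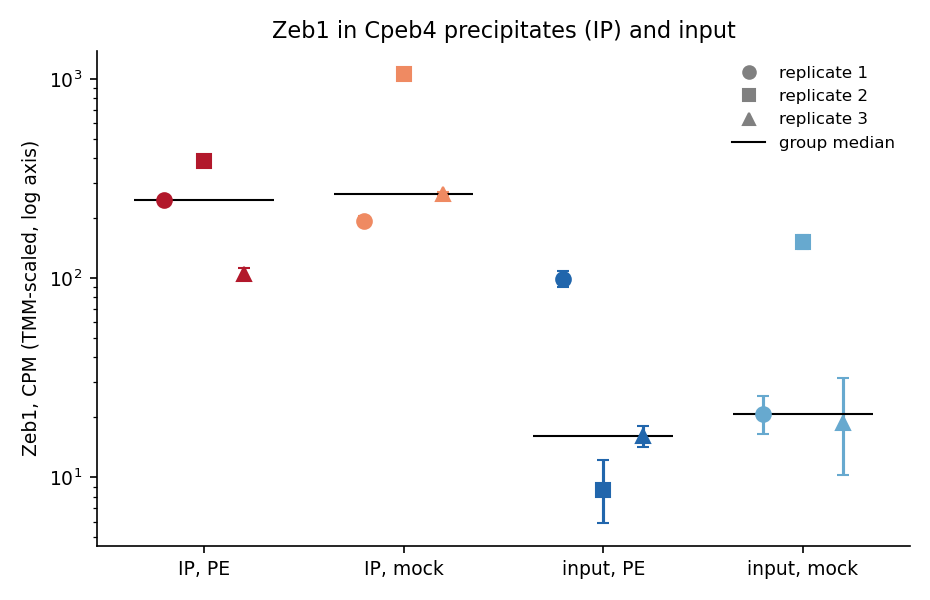
Zeb1 level in each of the 12 libraries, in CPM after TMM scaling on a log axis, by group; bars are 95% Poisson intervals for counting error and lines are group medians. The 4 input libraries other than mock replicate 2 and PE replicate 1 lie between 8.62 and 20.8 CPM, and the 6 IP libraries between 105 and 1054 CPM.

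The spread within groups was far larger than counting error. In input mock replicate 2 the 95% Poisson interval ran from 141 to 164 CPM, while replicate 1 of the same group had an interval of 16.6 to 25.6 CPM and replicate 3, with 14 counts, one of 10.3 to 31.6 CPM. Zeb1 was highest in the group's library that stood apart in 3 of 3 cases, which were IP mock replicate 2, input mock replicate 2 and input PE replicate 1. In the 2 input libraries among these, its lower value, 98.8 CPM, was 4.76 times the highest of the other 4 inputs, 20.8 CPM. Of all genes tested, 13.4% lay above the other 4 inputs in both of these libraries, and 77 further genes did so by at least this factor. The part that these libraries play in the level of Zeb1 was not tested.

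Zeb1 averaged 247 ± 141 CPM in IP of PE cells, 504 ± 477 in IP of mock cells, 41.2 ± 50.1 in input of PE cells and 63.9 ± 76.4 in input of mock cells (SD, n = 3 each). The level was thus highest in the mock IP group, followed by the PE IP, mock input and PE input groups. The libraries of neighbouring groups in this order overlapped for the 2 IP groups, for the 2 input groups, and for IP of PE cells beside input of mock cells. The medians, 248 CPM in IP of PE cells, 265 in IP of mock cells, 16.1 in input of PE cells and 20.8 in input of mock cells, gave the same order, and the medians of the 2 input groups lay closer to the low libraries than the means did. Because a 3′ end library yields about one fragment per transcript, counts can be ranked within a library without scaling to gene length. By this rank Zeb1 was number 390, 233 and 947 from the top in IP of PE cells, against 1130, 5880 and 4282 in input of PE cells. In mock cells it ranked 471, 94 and 358 in IP, against 3641, 757 and 3689 in input.

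The comparison of IP with input asks whether Zeb1 RNA made up more of the Cpeb4 precipitate than of total RNA. In PE cells Zeb1 was 5.99-fold higher in IP than in input, a log2 fold change of 2.58 (SE 1.13, 95% interval 0.09 to 5.08), which did not pass (edgeR quasi-likelihood test over 10491 genes, unadjusted p = 0.0434, adjusted p = 0.397). In mock cells it was 7.74-fold higher in IP, a log2 fold change of 2.95 (SE 1.15, 95% interval 0.42 to 5.48), which did not pass either (edgeR, unadjusted p = 0.0263, adjusted p = 0.359). The share of genes that passed as higher at an adjusted p under 0.05 was 0.458% in PE cells and 0.162% in mock cells. Zeb1 was chosen as a published Cpeb4 target and with earlier results of these data known, so its values here are not independent evidence of binding. As no control precipitate was analysed, binding to Cpeb4 itself was not tested.

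Averaged over both treatments, Zeb1 was 6.81-fold higher in IP than in input, with a log2 fold change of 2.77 (SE 0.80, 95% interval 0.99 to 4.54, edgeR unadjusted p = 0.00571, adjusted p = 0.0763). In this contrast, 2.26% of genes passed as higher, and Zeb1 did not pass. A two-sided exact permutation test of the mean difference in CPM, with labels permuted within treatment, gave p = 0.005 for a mean difference of 323 CPM. This is the smallest p it can give, and it was 0.03 after Benjamini-Hochberg adjustment over the 6 comparisons of Zeb1 tested in this way. The genes with every IP library above every input in both treatments, 2.95% of those tested, would reach the same p. As the test is two-sided, so would genes with every IP library below every input, which were not counted. Within a treatment the exact permutation test gave p = 0.1, the smallest that 3 libraries against 3 allow, for differences of 205 CPM in PE cells and 440 CPM in mock cells (adjusted 0.2 each).

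The size of the Zeb1 difference placed it near the upper end of all genes. Its log2 fold change exceeded that of 94.3% of the genes tested in PE cells and of 94.1% in mock cells. Most genes with larger values were sparse. Among the 5865 genes that averaged 10 CPM or more over the 12 libraries, the log2 fold change of Zeb1 ranked 82 from the top in PE cells and 65 in mock cells.

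**Figure D2:**
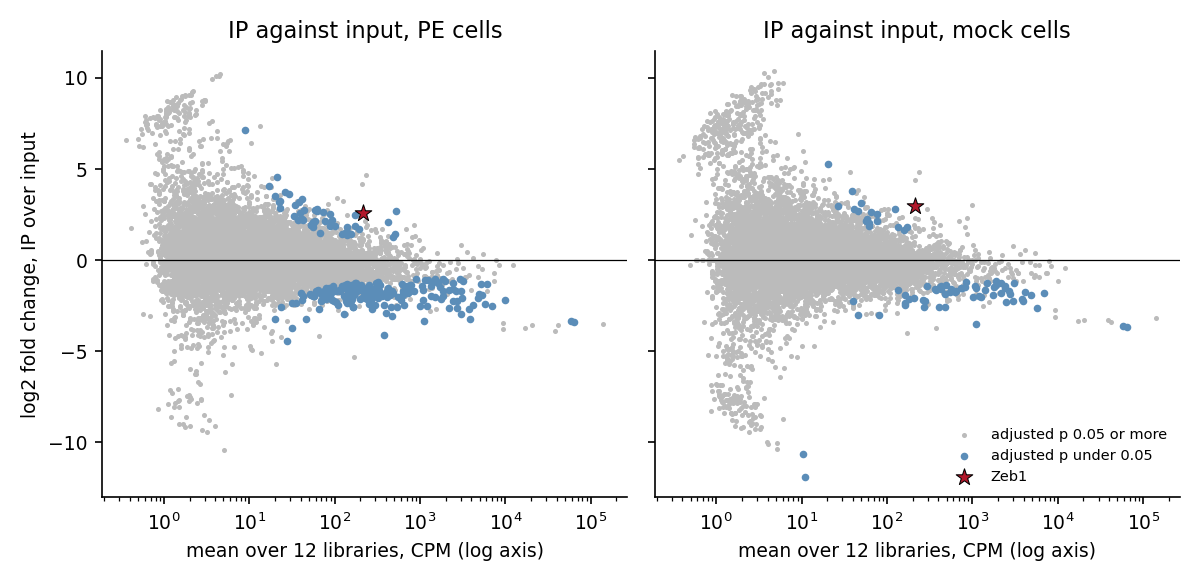
Log2 fold change of IP over input against the mean level in CPM (log axis) for the 10491 genes tested, in PE cells (left) and mock cells (right); each point is a gene, blue points have an edgeR adjusted p under 0.05, and the star is Zeb1. Zeb1, at log2 fold changes of 2.58 in PE cells and 2.95 in mock cells, lies at the upper edge of the genes of its level and is not among the blue points.

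Taken by replicate number, Zeb1 was higher in IP than in the input of the same number in 6 of 6 pairs. Any numbering would give this, because all IP libraries lay above all inputs within each treatment. In PE cells the ratio of IP to input was 2.51 in replicate 1, 44.9 in replicate 2 and 6.54 in replicate 3. In mock cells it was 9.33, 6.93 and 14.1. The ratio was thus more even among the mock pairs, where IP and input of replicate 2 were both high, than among the PE pairs, where the lowest ratio belonged to the pair with the high input. Deviations from the group means over all genes correlated between IP and input of the same number at 0.121 to 0.257 in the 3 mock pairs, all above the value of 0.1 that was taken as pairing. Libraries of different number also exceeded it in mock cells, at 0.143 for IP replicate 1 with input replicate 3 and 0.110 for IP replicate 3 with input replicate 1. In the PE pairs the correlation was 0.0236 to 0.232, which did not meet that value in every pair, and IP replicate 3 with input replicate 2 reached 0.220. With the replicate number as a block within treatment, Zeb1 passed in PE cells, at 3.04 on the log2 scale (SE 0.70, edgeR adjusted p = 0.0498), and in mock cells, at 3.23 (SE 0.67, adjusted p = 0.0431). It also passed on average over both treatments, at 3.14 (SE 0.48, edgeR adjusted p = 0.00422). These results treat the libraries as paired by number, which the labels do not state. The PE correlations did not show such pairs. In mock cells, replicates 1 and 3 correlated at 0.163 and 0.121 within numbers, and nearly as much across them. The share of genes that passed as higher with the block was 1.22% in PE cells, 0.906% in mock cells and 3.31% on average.

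**Figure D3:**
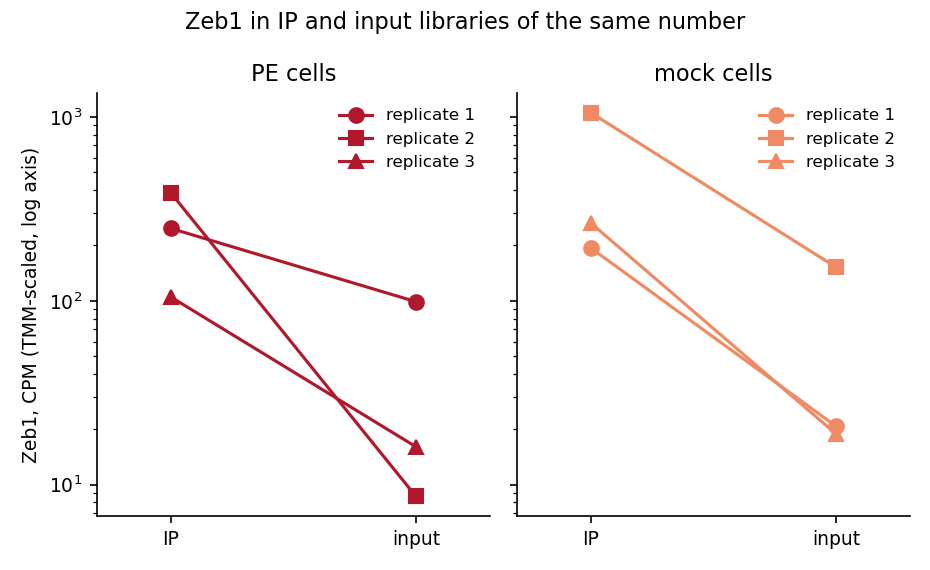
Zeb1 in CPM (TMM-scaled, log axis) in IP and input libraries that carry the same replicate number, joined by lines, in PE cells (left) and mock cells (right). All 6 lines are higher at the IP end, by 2.51 to 44.9 times in PE cells and 6.93 to 14.1 times in mock cells.

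Without mock replicate 2 and PE replicate 1, the remaining libraries of Zeb1 separated clearly. The libraries left out held its 2 highest inputs, 152 and 98.8 CPM, and its highest IP value, 1054 CPM. The wider gap and smaller SE thus follow in part from leaving out these 4, a choice made from these same counts. The 4 IP libraries lay between 105 and 387 CPM and the 4 inputs between 8.62 and 20.8 CPM, so the lowest IP library was 5.06 times the highest input. Of all genes tested, 8.29% had these 4 IP libraries above these 4 inputs. In this fit Zeb1 passed in both treatments, at 19.1-fold higher in IP of PE cells (log2 fold change 4.26, SE 0.57, edgeR adjusted p = 0.00053) and 11.2-fold higher in IP of mock cells (log2 fold change 3.49, SE 0.58, edgeR adjusted p = 0.00396). The share of genes that passed as higher in this fit was 3.28% in PE cells and 1.56% in mock cells, and each group then held 2 libraries. With IP PE replicate 1 kept, an alternative chosen after seeing the data, Zeb1 passed with a log2 fold change of 4.21 in PE cells (SE 0.53, edgeR adjusted p = 0.000106) and 3.46 in mock cells (SE 0.55, adjusted p = 0.00326), where 2.97% and 0.750% of genes passed as higher. Zeb1 also passed in both treatments with limma voom and sample quality weights, where 2.25% of genes passed as higher in PE cells and 0.734% in mock cells, and in the edgeR fit without a low-count filter, where 1.00% and 0.988% did. In the fit without the filter its log2 fold changes hardly moved, at 2.59 in PE cells and 2.98 in mock cells. Its SE fell to 0.438 and 0.445, so that call came from a lower estimate of the spread and not from a larger difference.

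Single libraries moved the size of the difference, and in none of the 12 fits that left out 1 library did Zeb1 pass within a treatment. In mock cells its log2 fold change was 4.66 without input mock replicate 2 (25.3-fold, edgeR adjusted p = 0.173) and 1.81 without IP mock replicate 2 (3.51-fold, adjusted p = 0.751). In PE cells it was 4.27 without input PE replicate 1 (19.3-fold, edgeR adjusted p = 0.132). The average over both treatments passed without input mock replicate 2 or without input PE replicate 1 (edgeR adjusted p = 0.0302 and 0.022), as did 2.46% and 2.40% of all genes as higher.

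**Figure D4:**
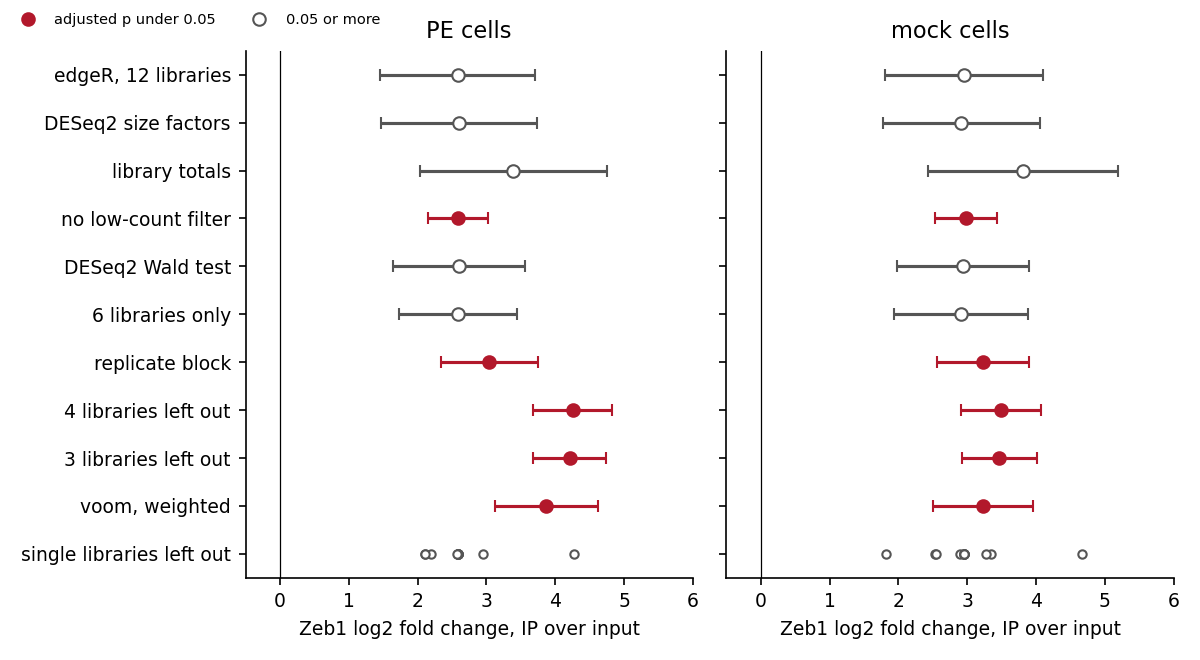
Log2 fold change of Zeb1, IP over input, under each way of fitting, in PE cells (left) and mock cells (right); bars are 1 SE, filled red points have an adjusted p under 0.05, and the bottom line shows the 12 fits that each left out 1 library, without bars. All points lie above 0, between 2.10 and 4.27 in PE cells and between 1.81 and 4.66 in mock cells.

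The scaling of the libraries bears on the size of these ratios. With TMM factors the median log2 fold change over the genes tested was 0.18 in PE cells and 0.11 in mock cells, and with library totals alone this median was 1.09 higher on the log2 scale in PE cells and 1.21 higher in mock cells. Scaled to library totals, Zeb1 stood at 391, 589 and 167 CPM in IP of PE cells, against 94.6, 6.23 and 9.11 in input, and 277, 1536 and 369 in IP of mock cells, against 10.1, 134 and 9.84 in input. On this scale every IP library lay above every input library of either treatment, which held for 12.7% of all genes tested. Relative to the median of all genes, the log2 fold change of Zeb1 was 2.41 in PE cells and 2.84 in mock cells with TMM factors, and fell by 0.29 and 0.35 when library totals were used.

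PE did not detectably change the level of Zeb1. In input, Zeb1 averaged 41.2 ± 50.1 CPM in PE cells and 63.9 ± 76.4 CPM in mock cells (SD, n = 3 each), which is -0.66 on the log2 scale (SE 1.08), with an edgeR adjusted p = 1.00. The 95% interval ran from -3.04 to 1.71, or from 0.121-fold to 3.28-fold, so a change of several-fold either way could not have been told from the spread between libraries. The 3 PE and 3 mock input libraries overlapped, and an exact permutation test gave p = 0.5 for the difference of -22.7 CPM. In this contrast 0.00953% of genes, which is 1 gene, passed as higher and 0.00% passed as lower, and 375 genes had an unadjusted p under 0.05 (by the Wald test of DESeq2, 19 passed as higher and 8 as lower, without Zeb1). Without input mock replicate 2 the log2 fold change was 1.04, and without input PE replicate 1 it was -2.40 (edgeR adjusted p = 1.00 in both). Without both numbered pairs it was -0.66 (SE 0.56, edgeR adjusted p = 1.00), from 8.62 and 16.1 CPM in PE inputs and 20.8 and 18.8 CPM in mock inputs.

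In the precipitates, Zeb1 averaged 247 ± 141 CPM in PE cells and 504 ± 477 CPM in mock cells (SD, n = 3 each), which is -1.03 on the log2 scale (SE 1.07, 95% interval -3.40 to 1.33, edgeR adjusted p = 1.00). The libraries overlapped, and an exact permutation test gave p = 0.6 for the difference of -257 CPM. Here too 0.00953% of genes passed as higher and 0.00% as lower, and 581 genes had an unadjusted p under 0.05 (DESeq2 passed 42 higher and 18 lower, without Zeb1). The sign rested on IP mock replicate 2, at 1054 CPM, without which the log2 fold change was 0.10 (SE 1.17, edgeR adjusted p = 1.00).

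The change of the IP difference with PE was tested as an interaction. Its log2 value for Zeb1, PE minus mock, was -0.37 (SE 1.51, 95% interval -3.70 to 2.97, edgeR adjusted p = 1.00). Of all genes, 0.00% passed as higher or lower in this contrast, while 271 had an unadjusted p under 0.05 (DESeq2 passed 2 higher and 2 lower, without Zeb1). Without mock replicate 2 and PE replicate 1 the value was 0.77 (SE 0.75, edgeR adjusted p = 0.895), so these libraries give no direction for an effect of PE on the recovery of Zeb1 with Cpeb4.

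Some genes followed the level of Zeb1 closely over the 12 libraries. Likeness was measured by the Pearson correlation of log2(CPM + 1), among 7612 further genes with a mean of at least 5 CPM. These correlations describe points that share library depth and quality and the split into IP and input, and carry no test. Likeness within IP or within input was not separated from a shared difference between IP and input. The gene most like Zeb1 was ENSRNOG00000002835 (r = 0.988, Spearman rho = 0.986), followed by ENSRNOG00000038365 (r = 0.983, rho = 0.951), and 92 genes reached at least 0.9. ENSRNOG00000002835 averaged 215 ± 148 CPM in IP and 38.3 ± 41.4 CPM in input of PE cells, and 253 ± 169 CPM in IP and 50.9 ± 47.3 CPM in input of mock cells (SD, n = 3 each). As with Zeb1, its highest inputs were mock replicate 2 at 106 CPM and PE replicate 1 at 86.1 CPM, with the other 4 between 14.0 and 24.4 CPM. Between IP and input it differed by log2 values of 2.49 (SE 0.89) in PE cells and 2.29 (SE 0.88) in mock cells, which did not pass (edgeR adjusted p = 0.238 and 0.345).

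The gene most opposite to Zeb1 was ENSRNOG00000015703 (r = -0.971, rho = -0.930), which averaged 206 ± 39.1 CPM in IP and 348 ± 101 CPM in input of PE cells, and 162 ± 31.0 CPM in IP and 351 ± 95.3 CPM in input of mock cells (SD, n = 3 each). The next was ENSRNOG00000005512 (r = -0.958, rho = -0.860). Over the 8 libraries without mock replicate 2 and PE replicate 1, the correlations with Zeb1 of these 4 genes, in the order named, were 0.987, 0.982, -0.975 and -0.935. The genes were picked by their correlation over all libraries, these 8 included, so the values are no separate check.

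**Figure D5:**
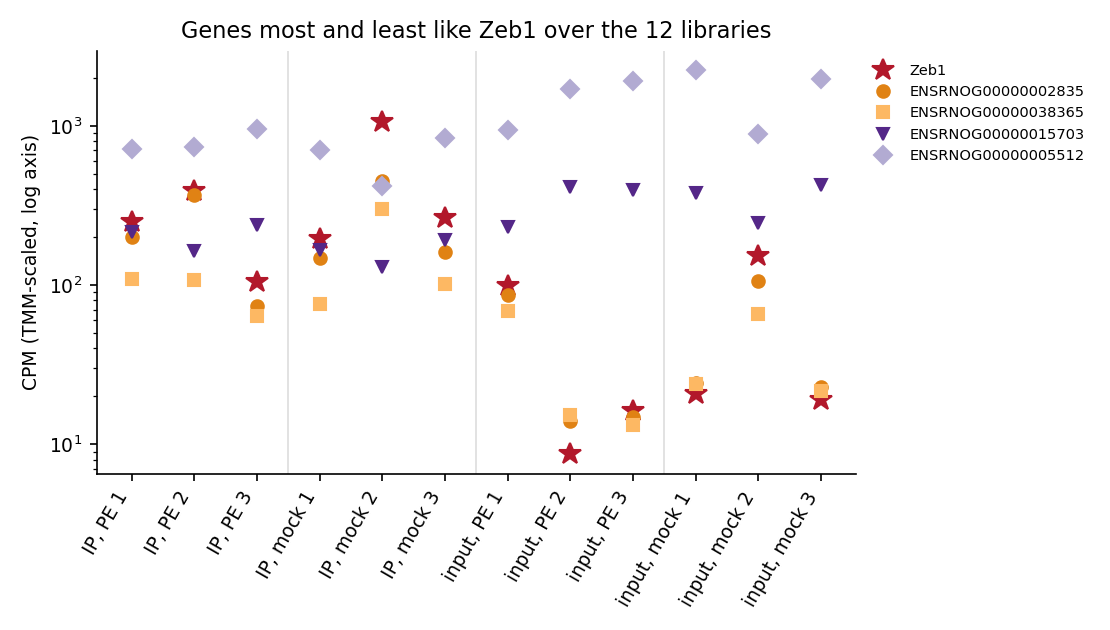
Level in CPM (TMM-scaled, log axis) of Zeb1 and of the 2 genes most like it and the 2 most opposite to it in each of the 12 libraries, named on the horizontal axis by group and replicate. The 2 most alike are high where Zeb1 is high, including input PE replicate 1 and input mock replicate 2, and the 2 most opposite are low there.

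Set beside the publication of Zeb1 as a Cpeb4 target, these counts show Zeb1 higher in all 3 Cpeb4 precipitates than in all 3 inputs within each treatment. Such a separation in both treatments held for 2.95% of genes tested. In PE cells the gap was narrow for Zeb1, at 105 against 98.8 CPM with overlapping Poisson intervals. For Zeb1 there was no call in either treatment in the edgeR fit of 4 group means to all 12 libraries. A call in both treatments came with the replicate block, without the low-count filter, with voom weights, and without the libraries that stood apart. The block relied on numbered pairs. The correlations of the PE libraries did not show these, and those of mock replicates 1 and 3 were nearly as high across numbers. Without the filter the fold changes hardly moved, while the SE fell. The libraries left out held the 2 highest Zeb1 inputs. The counts measure RNA only, so control of Zeb1 translation or protein by Cpeb4 was not tested.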

How the data were processed

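The authors deposited a single table of unnormalized counts per Ensembl gene. Per the submitters' processing notes, featureCounts 1.6.4, STAR 2.7, cutadapt 2.5 and DESeq2 were used with the build Rnor_6.0, without options or a strand setting. On GRCr8, RefSeq has 2 genes that overlap Zeb1, of which 0 reach its 3′ end. The table held 32883 blank lines, which were skipped, and 15786 genes with a count. Zeb1, the lists and the tests were chosen with earlier results of these data known.

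All genes passing filterByExpr (10491) were fitted in R 4.3.3 by edgeR 4.0.16 with robust dispersions, TMM factors, 4 group means over 12 libraries and the quasi-likelihood F-test, adjusted over all genes by the Benjamini-Hochberg method, with a threshold of 0.05. The SE is the log2 fold change divided by the square root of F. CPM used TMM factors. Library totals ranged from 1423334 to 30216559. No 2 libraries of a group agreed within sampling noise (lowest chi-square per degree of freedom 7.79, genes with at least 20 counts). The named genes are the 2 most and the 2 least correlated with Zeb1. The lists fixed by symbol were not used. Same-numbered IP and input deviated together in mock cells (r of 0.121 to 0.257), which was taken as pairing, as the labels state none. Mock libraries of different number reached 0.143, so replicates 1 and 3 were not set apart by number. In PE cells r was 0.0236 to 0.232, and between treatments -0.261 to 0.146, which was not taken as pairing. Alternatives were DESeq2 1.42.0, DESeq2 size factors, library totals, no filter, fewer libraries, replicate blocks and limma 3.58.1 voom. Only the edgeR fit of group means for IP against input was tested on simulated counts.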

Additional observations from a re-analysis of the deposited data

How the results depend on the processing

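All 21 alternatives per treatment kept Zeb1 higher in IP than in input. They reuse the same libraries and are not independent, and 12 of them left out 1 library, in some cases of the other treatment. As reported, its log2 fold change was 2.58 in PE cells, 2.95 in mock cells and 2.77 on average, none of which passed. It passed without a low-count filter (2.59, 2.98 and 2.79), with voom and sample weights (3.87, 3.23 and 3.55), without mock replicate 2 and PE replicate 1 (4.26, 3.49 and 3.87), without the 3 libraries that stood apart, an alternative chosen after seeing the data (4.21, 3.46 and 3.84), and with a replicate block within treatment (3.04 with adjusted p = 0.0498, 3.23 and 3.14). Without the filter the values hardly moved, while the SE fell to 0.438 in PE cells and 0.445 in mock cells. The block assumed pairs by number, which the PE libraries did not show and which mock replicates 1 and 3 did not set apart from other pairings. The average alone passed with library totals (3.60) and with the DESeq2 Wald test (2.77, adjusted p = 0.00102), where PE and mock cells had adjusted p of 0.083 and 0.0517. Leaving out single libraries gave 2.10 to 4.27 in PE cells, 1.81 to 4.66 in mock cells and 2.20 to 3.62 on average. Among the 10491 genes tested as reported, 48 passed as higher in IP of PE cells and 17 in IP of mock cells. On the same number of genes, 641 and 842 passed with library totals, 128 and 95 with the block, and 236 and 77 with voom. The other fits held other numbers of genes, so their counts are not directly comparable. Of 15786 genes, 158 and 156 passed without a filter. With DESeq2, 234 and 148 of them passed, and 5929 and 5114 had no adjusted p. Of 10735 genes, 352 and 168 passed without the 4 libraries, and of 11062 genes, 328 and 83 without the 3. In edgeR fits of 6 libraries, 18 of 9329 and 0 of 8838 genes passed, where 1358 and 886 had an unadjusted p under 0.05.

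No alternative made PE against mock or the interaction pass for Zeb1. Their signs were not stable. Leaving out single libraries gave -2.40 to 1.04 in input, -1.52 to 0.10 in IP and -2.08 to 1.37 for the interaction. Without mock replicate 2 and PE replicate 1 the interaction was 0.77 and PE against mock in IP 0.11, without the 3 libraries they were 0.75 and 0.087, and with voom the interaction was 0.64. With the replicate number as a block across treatments, PE against mock was -0.11 in input and -0.98 in IP. Fits on the libraries of a comparison do not exist apart from the reported one for the average and the interaction. For all of these, the cause was not tested. The lowest count behind a value was 14, in input mock replicate 3.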
